A study of Mus musculus with 10 samples.

Results

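The 2 H3K4me1 immunoprecipitates from mouse bone marrow-derived mast cells, each called against its own input, gave 130156 of the 234627 peaks in the 5 deposited lists. They were taken by the name of the mark in the list, with no choice of peaks by value, and comprised 70726 peaks in replicate 1 and 59430 in replicate 2. The study mapped H3K4me1 and H3K27ac by ChIP-seq to find putative enhancers in mast cells. Its 10 samples were 2 H3K4me1 immunoprecipitates, 3 H3K27ac immunoprecipitates and the 5 matching inputs. All came from bone marrow of C57BL/6 mice aged 6 to 8 weeks that was cultured for 4 weeks with 20 ng/ml interleukin-3, with no genetic change or treatment given, and the cells were over 99% positive for the high-affinity IgE receptor and Kit. Chromatin was fixed with 1% formaldehyde, and the reads came from an Ion Torrent Proton. The labels do not state that the replicates came from separate cultures or animals, so differences between lists may be technical. Identity of the cells was not checked against marker genes, because an mm9 annotation was not used here, and loci are therefore named by mm9 position, counted from 1.

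Monomethylation of lysine 4 on histone H3 is laid down mainly by the KMT2C and KMT2D methyltransferases and is found at enhancers, both those in use and those held ready. It spreads over several nucleosomes and often lies on both flanks of an enhancer's nucleosome-poor centre, where transcription factors bind. Mast cells are tissue-resident immune cells that carry the high-affinity IgE receptor and store histamine and proteases in granules.

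The caller kept 19513552 immunoprecipitate tags against 14492927 input tags in replicate 1, and 14685161 against 12097147 in replicate 2. For each peak the authors' list gives a length, a summit position, a pileup (overlapping extended tags at the summit, scaled to the smaller library) and a fold enrichment, the ratio of pileup to the local background, with 1 added to both. The median peak was 356 bp long with a fold of 6.50 and 33 tags at its summit in replicate 1, and 437 bp long with a fold of 6.13 and 27 tags in replicate 2. Tag counts at summits are given before scaling to the smaller library, and backgrounds on the scale of the pileup. The longest peaks measured 7044 and 7620 bp, and the highest folds were 23.7 and 22.4. The shortest were as long as the estimated fragment, 203 and 255 bp, a length that 2438 and 2426 peaks had exactly. Lengths at the low end and their difference between the lists thus sit at a limit of the caller. Despite the difference in number, the lists covered nearly the same amount of sequence, 34.1 and 34.2 Mb.

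Joining overlapping or touching peaks of both lists gave 82634 regions, of which 42329 held a peak of each list, 24736 a peak of replicate 1 alone and 15569 a peak of replicate 2 alone. Of these shared regions 89.5% held 1 peak of each list, and in 3060 replicate 1 had more peaks than replicate 2, against 1142 with more in replicate 2. In the shared regions with 1 peak of each list, the 2 summits were a median of 55 bp apart, and 68.3% were within 100 bp. By peaks, 65.0% of replicate 1 (95% Clopper-Pearson interval 64.7 to 65.4) and 73.8% of replicate 2 (73.4 to 74.2) overlapped a peak of the other list by at least 1 bp. These intervals cover counting error only.

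Long peaks and peaks with many tags recurred far more often than short or shallow ones. In 5 equal classes of each list, shortest to longest, the recurring share was 37.8, 52.3, 65.1, 77.0 and 92.8% in replicate 1, and 50.6, 65.2, 73.5, 83.6 and 96.1% in replicate 2. In 5 such classes by pileup, low to high, it was 36.9, 51.1, 64.4, 79.3 and 93.3% in replicate 1, and 42.8, 63.0, 76.4, 89.3 and 97.5% in replicate 2. By fold the lowest 3 classes differed less, at 57.6, 57.1 and 60.8% in replicate 1 and 69.6, 65.4 and 68.3% in replicate 2, and the upper 2 stood higher, at 67.3 and 82.2% in replicate 1 and 76.2 and 89.6% in replicate 2. Peaks in crowded neighbourhoods also recurred more often. A peak in a 100 kb bin of at least 20 summits recurred in 72.0% of cases in replicate 1 and 81.0% in replicate 2, and a peak that was alone in its bin in 47.8% and 58.4%. Peaks in those full bins had more tags too, with a median pileup of 27.5 against 20.8 for lone peaks in replicate 1, and 24.7 against 18.95 in replicate 2. They were longer as well, with a median of 405 against 290 bp in replicate 1 and 506 against 362 bp in replicate 2. Overlap by 1 bp comes more easily where peaks are long or dense. Neither this nor the part of depth in the differences by length, pileup, fold or crowding was tested.

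Rank by fold was poorly kept between the lists, and ranks by length and by pileup better. Of the 100 peaks of highest fold in a list, 8 overlapped one of the 100 highest of the other, in each direction, and of the 100 longest 31 did. Among the first 1000, the overlap was 129 and 128 peaks by fold, or 12.9% and 12.8% of each list's 1000, and 516 and 508 by length, or 51.6% and 50.8%. The peaks themselves were nearly all present in the other list at some rank: 96 and 99 of the 100 highest by fold, and 100 and 100 of the 100 longest. By pileup, 55 and 51 of the first 100 overlapped one of the other list's first 100. Many of those lay at a few loci of high input, described further below. Among the first 1000 by pileup, 438 and 424 did. Across the 42329 shared regions, Spearman's rho between the lists was 0.23 for the highest fold, 0.60 for the longest peak and 0.65 for the highest pileup. It was 0.24 for the background that the fold implies. These are correlations across regions of 2 libraries and not across independent samples. The median implied background over all peaks of a list was 3.00 in replicate 1 and 2.81 in replicate 2. The part of the background in the rank by fold was not tested.

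**Figure D1:**
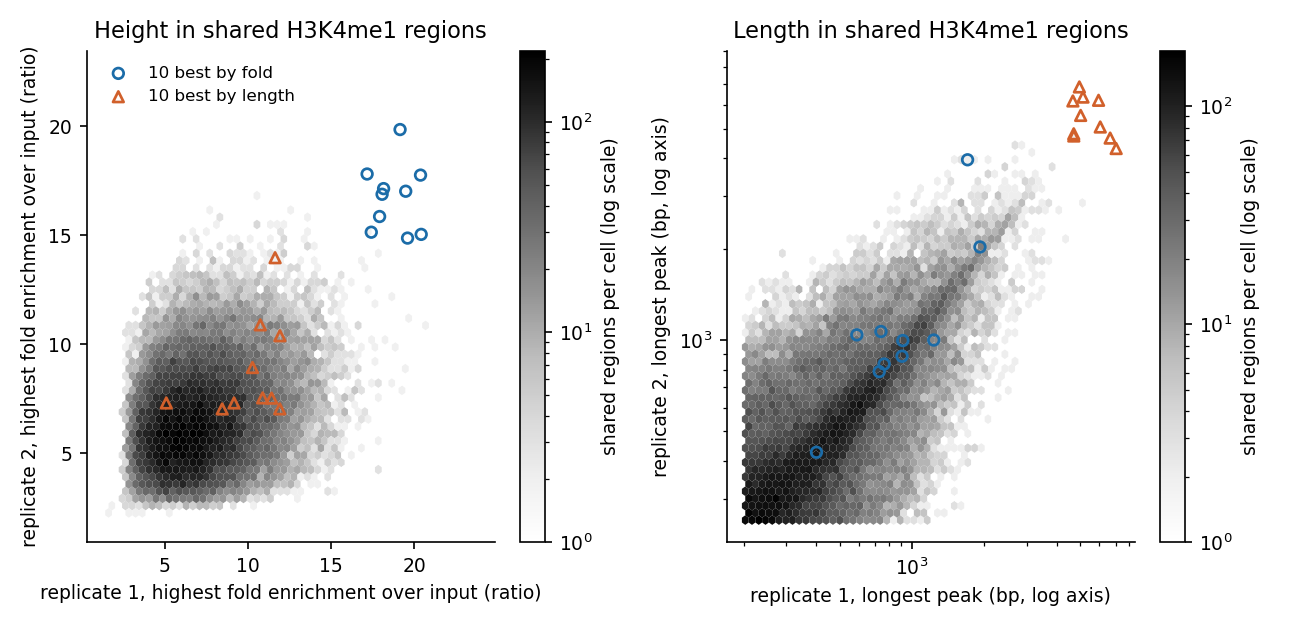
Highest fold enrichment over input (left, ratio) and longest peak (right, bp, log axes) of the 42329 shared H3K4me1 regions in replicate 1 (x axis) and replicate 2 (y axis). Grey shade gives the number of regions per cell. Blue circles are the 10 regions with the best mean rank by fold, and orange triangles the 10 with the best mean rank by length. The folds of the triangles run from 5.10 to 11.9 in replicate 1 and from 7.03 to 14.0 in replicate 2. Their medians are 10.8 and 7.53.

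The 1 peak that headed each list by fold stood lower in the other. The highest of replicate 1, at chr2:131280730-131281051, had a fold of 23.7. Its pileup was 60.2 (81 tags before scaling) over a background of 1.58. The counterpart in replicate 2 had a fold of 11.9 and ranked 1043. The highest of replicate 2, at chr17:66022880-66023620, had a fold of 22.4. Its pileup was 59.3 (72 tags before scaling) over a background of 1.69. The counterpart in replicate 1 had a fold of 5.32 and ranked 50491. In both cases the background was close to its lower limit, the genome-wide expectation of 1.57 tags in replicate 1 and 1.65 in replicate 2.

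The highest locus in both lists together was chr14:27789949-27791017. It held 1 peak per list, with a fold of 20.4 in replicate 1 (rank 10, 82 tags) and 17.8 in replicate 2 (rank 9, 56 tags), and its summits were at 27790190 and 27790198. Next was chr16:44963179-44964419, with folds of 19.2 and 19.9 at ranks 28 and 4. At chr2:37787536-37788533 the folds were 19.5 and 17.02 at ranks 20 and 15. These 3 loci stood within the first 30 places of both lists.

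Places 4 to 6 went to loci that were further down in 1 list. At chr2:31582379-31583166 the folds were 18.2 (rank 57) and 17.1 (rank 12). At chr16:90096611-90097654 they were 18.1 (rank 59) and 16.9 (rank 16). The exception in shape was chr4:47303527-47307569, a region of 4043 bp in which replicate 1 had 3 peaks and replicate 2 a continuous peak of 3943 bp, the 54th longest of that list. Its folds were 20.4 (rank 9) and 15.0 (rank 97), and 45 and 38 summits lay within 50 kb.

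The remaining 4 also held 1 peak per list. At chr7:74126462-74126920 the folds were 17.2 and 17.8, on peaks of 401 and 427 bp. At chr17:13819283-13821315 they were 17.9 and 15.9, on peaks of 1915 and 2033 bp. At chr8:127390993-127391827 they were 19.6 and 14.9, and at chr8:129424040-129424959 17.4 and 15.1.

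As a group, 9 of the 10 highest loci held 1 peak in each list. Their longest peaks had median lengths of 838 and 1000 bp in replicates 1 and 2. The number of summits within 50 kb ran from 2 to 45 in replicate 1 and from 3 to 38 in replicate 2, with medians of 10.0 and 9.5, and the medians over all shared regions were 13 and 11. Of the 10, 3 lay in a 100 kb bin that was crowded in both lists (at least 10 summits in each), against 51.9% of all shared regions. The 1000 best by fold went the other way, with 60.4% in such bins and medians of 15.5 and 13 summits within 50 kb. The background at these loci was low, at 1.83 to 2.83 tags in replicate 1 and 1.65 to 3.00 in replicate 2, and its part in their rank was not tested.

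The widest loci were other places. The best mean rank by length was that of chr2:172856148-172862396, where a continuous peak measured 5953 bp in replicate 1 (rank 5) and 6197 bp in replicate 2 (rank 6). Its folds were 11.4 and 7.53, at ranks 3630 of 70726 and 14799 of 59430. The same locus was thus near the top by width and further down by fold, though above the median fold of each list. At chr7:132714286-132722517 the longest peaks measured 6050 and 5059 bp, with 3 and 2 peaks in 8232 bp. Its highest folds were 5.10 and 7.31, the first below that list's median.

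A pair of loci on chromosome 8 lay close together. The region at chr8:123079582-123090034 was the longest shared region of all, 10453 bp, with 4 peaks in replicate 1 covering 9785 bp and 2 in replicate 2 covering 9087 bp. Its longest peaks were 5130 and 6350 bp, at ranks 13 and 5. The other, at chr8:122846356-122854398, had longest peaks of 4955 and 6859 bp, at ranks 17 and 2, and 3 and 2 peaks.

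At chr15:79926652-79933302 the peak was 6651 bp in replicate 1 (rank 2) and 4650 bp in replicate 2 (rank 22). At chr5:124525003-124530706 it was 5016 and 5524 bp. At chr7:151964494-151972557 the longest peak of replicate 1 measured 7044 bp (rank 1), and replicate 2 had 3 peaks there, the longest of 4295 bp (rank 32). The list's longest peak in replicate 2, 7620 bp at chr5:35378725-35386344, was matched in replicate 1 by a longest peak of 3141 bp at rank 123.

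The last 3 of the 10 were on chromosomes 4 and 8. At chr4:134628978-134635290 the longest peaks measured 4657 and 6166 bp. At chr8:124835614-124840417 they measured 4695 and 4804 bp. At chr4:134309107-134313938 they measured 4698 and 4724 bp, and this was the wide locus with the highest fold in replicate 2, 14.0 at rank 230.

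All 10 of the widest loci lay in bins crowded in both lists. Within 50 kb of them were 17 to 40 summits in replicate 1 and 15 to 33 in replicate 2. Among the 1000 best shared regions by length, 80.5% lay in such bins, against 60.4% of the 1000 best by fold, 77.0% of the 1000 best by pileup and 51.9% of all shared regions. By both fold and length, 137 regions were among the 1000 best. The number expected if the rankings were unrelated was not computed. Over all peaks of a list, fold and length rose together weakly, with Spearman's rho of 0.24 in replicate 1 and 0.26 in replicate 2. None of the 10 highest loci was among the 10 widest. The median implied background was 3.87 and 3.58 tags at the 1000 widest, and 2.42 and 2.30 at the 1000 highest.

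Peaks of the mark bunched strongly along the chromosomes. The median distance from a summit to the next was 3388 bp in replicate 1 and 4616 bp in replicate 2, and the mean was 36327 and 43070 bp. Of all neighbouring summits 39.8% were within 2000 bp of each other in replicate 1 and 33.2% in replicate 2, and 20.7% and 14.4% were within 1000 bp. The fullest class of 100 bp was 601 to 700 bp in both lists, with 2724 and 1741 pairs. From there the classes thinned out, to 781 and 696 pairs at 1901 to 2000 bp and 249 and 239 at 4901 to 5000 bp. The side of short distances is bounded by the caller, since no gap between peaks was below 155 bp in replicate 1 or 167 bp in replicate 2, which is 1 bp above the tag size in each. The H3K27ac lists had the same fullest class.

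**Figure D2:**
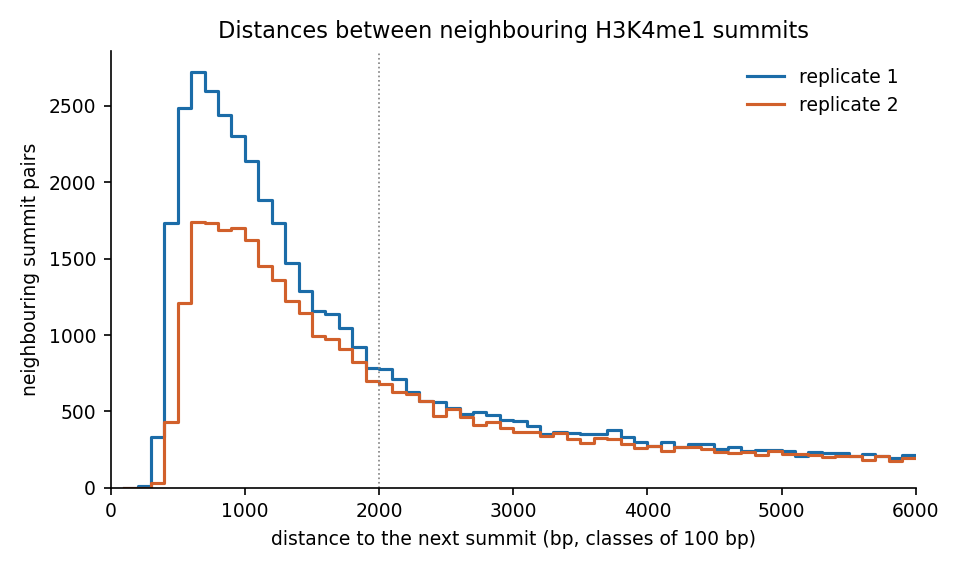
Number of neighbouring H3K4me1 summit pairs (y axis) by distance to the next summit (x axis, bp, in classes of 100 bp) in replicate 1 (blue) and replicate 2 (orange); the dotted line is at 2000 bp. Both lists are fullest at 601 to 700 bp, with 2724 and 1741 pairs.

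Close summits had stretches with no call between them. Edge to edge, peaks whose summits were within 2000 bp were a median of 457 bp apart in replicate 1 (quartiles 263 and 807) and 482 bp in replicate 2 (293 and 828). Neighbours within that distance were barely alike in fold, with Spearman's rho of 0.07 in each list, or in length, with 0.11 and 0.09. This is a description across neighbouring peaks, which share a library.

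Linking summits no more than 2000 bp apart gave chains. In replicate 1, 38.8% of the peaks stood alone and in replicate 2 46.8%, while 25.4% and 25.7% were in chains of 2. Chains of at least 5 summits numbered 1608 and 830, holding 14.6% and 8.50% of the peaks, and chains of at least 10 numbered 117 and 39. The longest chain had 25 summits in replicate 1 and 18 in replicate 2.

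The longest chain by its count in both lists was on chromosome 1, with 16 summits in each. It ran over 19023 bp, from 89530342 to 89549365, in replicate 1 and over 19026 bp, from 89530378 to 89549404, in replicate 2. Its median fold was 10.5 in replicate 1, above the list's median of 6.50, and 6.30 in replicate 2, near the median of 6.13. On chromosome 7 a chain of 24 summits from 142765355 to 142793477 in replicate 1 met one of 15 from 142769465 to 142787630 in replicate 2. On chromosome 4 chains of 19 and 15 summits began at 138750680 and 138751791. A further pair on chromosome 4, of 18 and 14 summits, began at 47313430 and 47316793, less than 10 kb beyond the high and wide region described above. The fifth, of 13 summits in each list on chromosome 6 from 47687311, differed from these in fold, with medians of 4.28 and 5.16, below those of the lists, and belongs to an evenly spaced locus described last.

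Crowding in bins of 100 kb was ranked alike by both lists. Over 25643 bins, the Spearman correlation of summit counts between the lists was 0.92, and 0.88 over the 11585 bins with a summit in either list. Both lists left 54.8% of bins empty. The variance of the counts was 11.4 times their mean in replicate 1 and 9.63 times in replicate 2. The fullest 10% of bins held 60.7% and 60.8% of the summits, and the fullest 1% held 12.3% in each list. At least 10 summits were found in 2455 bins of replicate 1 and 1929 of replicate 2, and in both lists in 1780 bins, or 72.5% and 92.3% of each list's crowded bins.

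**Figure D3:**
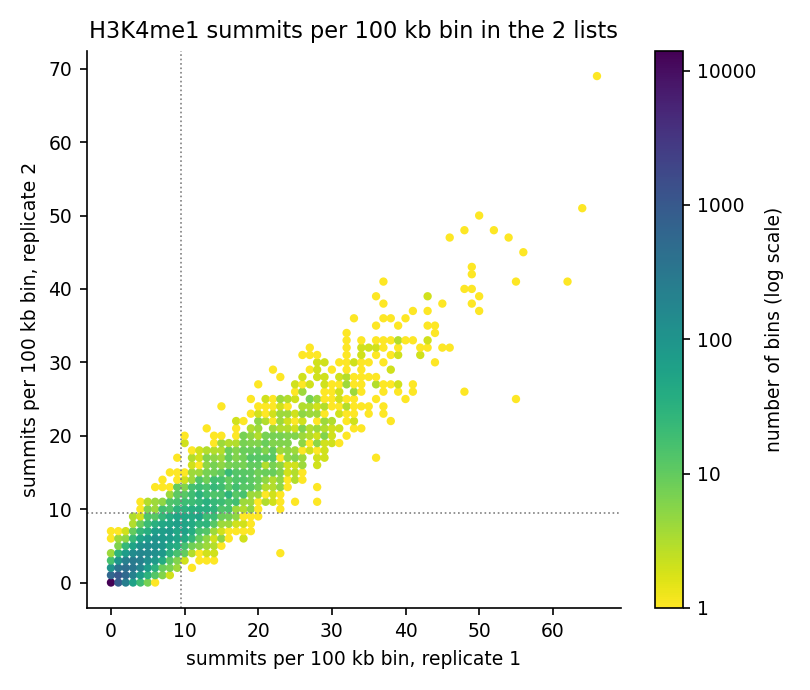
H3K4me1 summits per 100 kb bin in replicate 1 (x axis) and replicate 2 (y axis); each point is a pair of counts and its colour the number of bins with that pair (log scale), with dotted lines below 10 summits. The bin at the upper right has 66 and 69 summits.

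The fullest bin of both lists was chr15:58800001-58900000, with 66 summits in replicate 1 and 69 in replicate 2. Of those, 59 in each list had an overlapping peak in the other. The peaks covered 48.2 and 49.5 kb of the 100 kb, and neighbouring summits were a median of 1271 and 1215 bp apart. At such coverage many peaks would overlap by 1 bp wherever they lay in the bin. The number expected in that way was not computed. Its peaks were neither the highest nor the longest: the best rank by fold there was 268 in replicate 1 and 202 in replicate 2, and the longest peaks measured 2582 and 2343 bp. The second bin in both lists was chr13:43300001-43400000, with 64 and 51 summits.

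**Figure D4:**
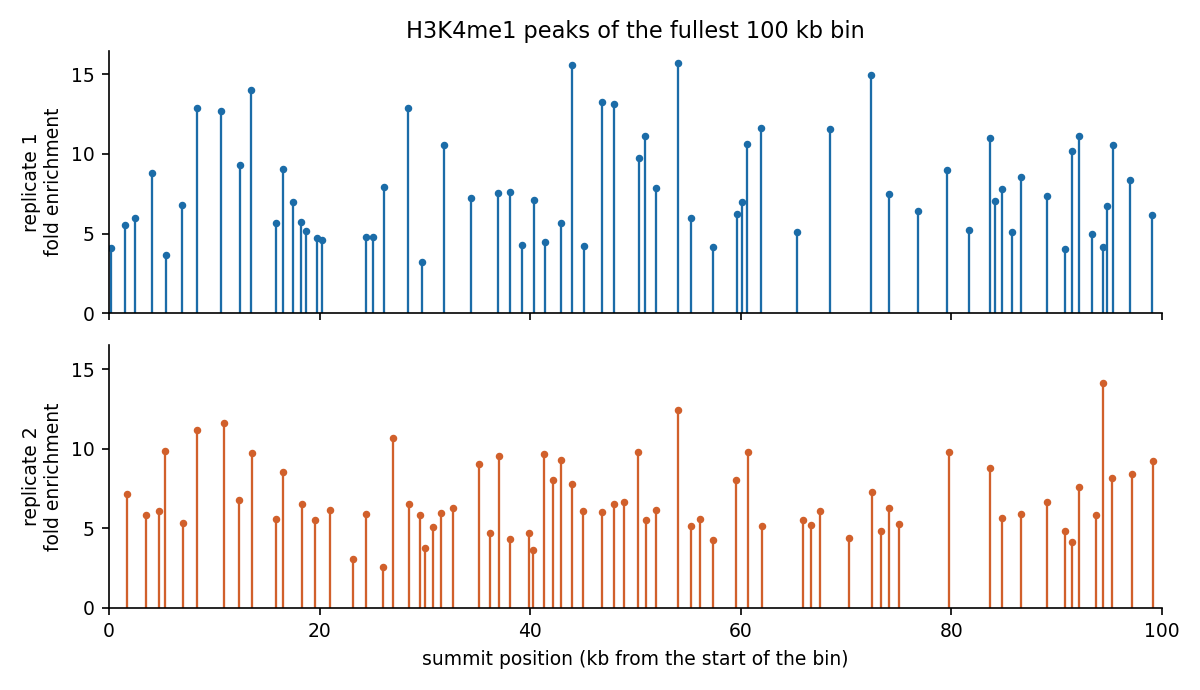
Fold enrichment over input (y axis, ratio) of each H3K4me1 peak in the bin with the most summits, at its summit (x axis, kb from the start of the bin), in replicate 1 (upper) and replicate 2 (lower). The 66 and 69 summits lie along the whole bin, and the highest folds are 15.7 and 14.1.

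The other 8 of the 10 fullest were on chromosomes 7, 8, 11, 13 and 16. The bin chr7:87500001-87600000 had 50 summits in each list. The bin chr11:117100001-117200000 had 52 and 48, and chr13:51800001-51900000 had 56 and 45. Those at chr8:119800001-119900000 and chr7:73300001-73400000 had 54 and 47, and 55 and 41.

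At chr11:87900001-88000000 the lists parted most among the 10, with 62 and 41 summits, and 62.9% of the peaks of replicate 1 there had a counterpart against 87.8% of those of replicate 2. The bin chr16:92700001-92800000 had 49 and 43. The bin chr8:123000001-123100000 had 48 in each list and the most sequence covered of the 10, 53.7 and 55.4 kb; it holds the longest shared region, and no other of the 10 widest or 10 highest loci lay in any of these bins.

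Median folds in the 10 fullest bins ran from 6.18 to 7.33 in replicate 1 and from 5.69 to 6.62 in replicate 2, around the medians of the whole lists, 6.50 and 6.13. Median lengths were 359 to 699 bp and 420 to 745 bp, against 356 and 437 bp over the lists, and 1 bin in replicate 2 lay below that.

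Crowded bins lay beside each other. Of the 1780 bins crowded in both lists, 62.8% had a crowded bin next to them, and 155 stretches were at least 3 bins long. The longest stretches were 1100 kb each. The first, chr11:119500001-120600000, held 215 and 182 summits, and the second, chr7:52100001-53200000, held 200 and 155. A stretch of 900 kb at chr6:87600001-88500000 held 164 and 160. Counts in bins next to each other had a Spearman correlation of 0.67 and 0.68 within a list, and counts 50 bins apart one of 0.08 in both.

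Chromosome 11 was the densest in both lists, with 55.3 and 46.9 peaks per Mb between its first and last peak, and 17.02% of its bins were crowded in both. Chromosomes 19 and 17 followed, with 39.7 and 33.7, and 38.9 and 32.9 peaks per Mb. The sparsest autosome was chromosome 3, with 18.7 and 15.5. The X chromosome stood far below, with 2.69 and 1.74 peaks per Mb, 432 and 279 peaks in all, and a single bin crowded in both lists. Its peaks were shallower, with a median pileup of 17.8 in replicate 1 and 16.5 in replicate 2, against 23.8 to 25.2 and 21.4 to 23.1 on single autosomes. They also recurred less often, in 38.0% (95% interval 33.4 to 42.7) of replicate 1 and 57.7% (51.7 to 63.6) of replicate 2, against 65.2% and 73.9% on the autosomes. In the lowest of the 5 pileup classes of the whole lists, up to 19.3 and 17.3, 36.9% and 42.8% recurred. The median pileups on the X fall in that class. The part of pileup in the recurrence on the X was not tested. The median implied background on the X was 2.00 and 1.79 tags, also below the autosomal 2.87 to 3.00 and 2.56 to 3.00. The part of sequencing depth on this chromosome in its low number of peaks was not tested.

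The 5 longest stretches with no summit in either list were on the X chromosome and on chromosome 7. On the X they ran between summits at 108576500 and 118768774 (10.19 Mb), 23400978 and 33428410 (10.0 Mb), 58147504 and 67616247 (9.47 Mb), and 74885779 and 82344479 (7.46 Mb). On chromosome 7 the stretch ran from 39021951 to 46711979 (7.69 Mb). In all, 428 stretches were over 1 Mb, 36 of them on the X, and together they made up 937 Mb. Within such a stretch no peak reached the q-value limit of 0.001, and the share of each that reads can be placed in was not known.

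Ranking by raw pileup named other loci than ranking by fold. The loci of this and the next paragraph were chosen after their values were seen. Of the 100 peaks of highest pileup, 36 in replicate 1 and 31 in replicate 2 lay within about 120 kb of chromosome 6, from 47601575 to 47723340. A further 11 and 3 lay on chromosome 8 between 126064143 and 126141563, with folds of 2.87 to 11.8 in replicate 1 and 4.65 to 5.65 in replicate 2. On chromosome 11 there were 9 and 18 between 3023814 and 3069066, where the folds were 1.43 to 2.84 in replicate 1 and 1.96 to 3.33 in replicate 2. On the X chromosome 5 and 12 lay between 166416373 and 166447010, with folds of 2.74 to 4.31 and 1.93 to 3.65, and 4 in each list lay on chromosome 17 between 3079255 and 3084568. At these loci the input was high as well, with a median background of 77.0 and 58.5 tags at the locus on chromosome 11. Other loci of high pileup had less input and higher folds. On chromosome 4 between 88425745 and 88449617, 5 peaks of replicate 1 had folds of 6.89 to 14.8 over a median of 8 tags. On chromosome 17 between 6432258 and 6473116, 3 peaks of replicate 1 had folds of 9.12 to 14.1. In replicate 2, 2 peaks of the same megabase had folds of 9.44 to 14.8. The first of these began at 6006388 and the other ended at 6468356, so they were not a single locus. Peaks of high pileup were grouped by megabase of each chromosome. No list of mm9 regions prone to unreliable signal was used here, so whether these loci belong to one was not checked, and their pileups are given as deposited.

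The highest peaks of the locus on chromosome 6 were evenly spaced. It held 17 shared regions with a pileup of at least 120 in replicate 1, 9 in a first block from 47601575 to 47636971 and 8 in a second from 47690380 to 47723340. Within the blocks their summits were a median of 4351 bp apart in replicate 1 and 4362 bp in replicate 2, and 14 and 13 of the 15 distances were between 4000 and 5000 bp. Pileups of the 17 were 129 to 178 in replicate 1 and 98.0 to 162 in replicate 2, on summits a median of 48 bp apart. Their folds were moderate, 3.83 to 7.15 and 3.99 to 8.83, over a median background of 26 and 18 tags, against 3.00 and 2.81 over the whole lists. Lower peaks stood between them, so that the locus held 61 and 49 peaks in all, of which 55 and 49 recurred. The fifth chain named above overlaps the start of the second block.

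**Figure D5:**
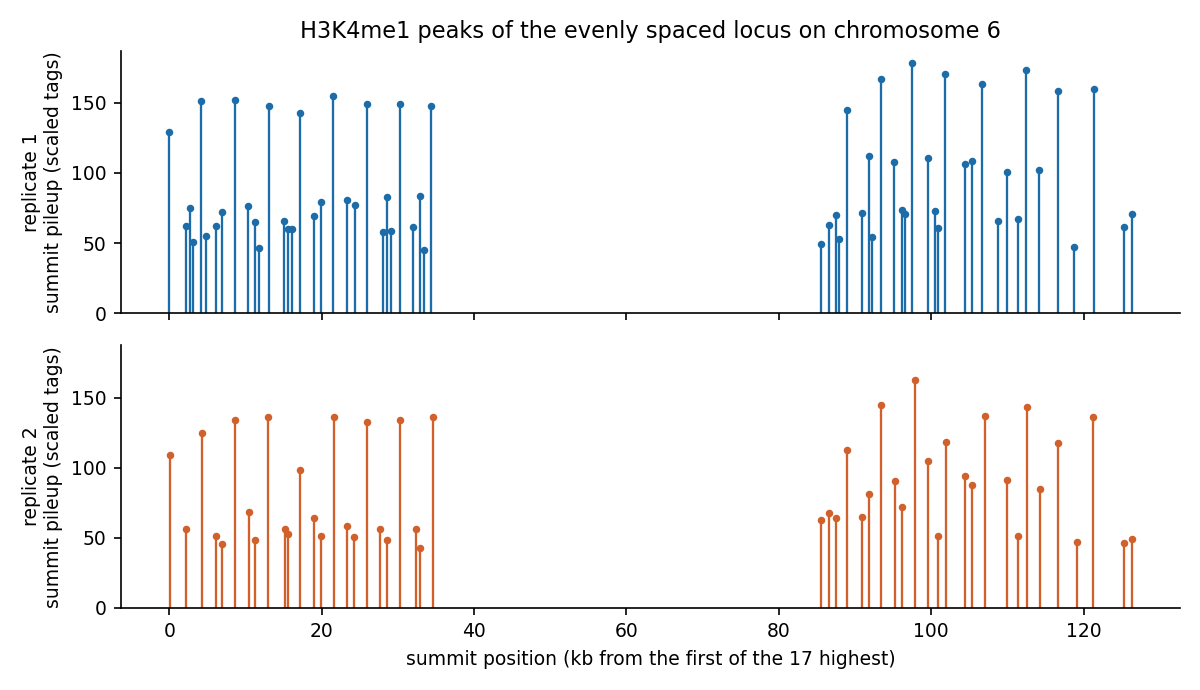
Pileup at the summit (y axis, tags scaled to the smaller library) of each H3K4me1 peak at the chromosome 6 locus, by position (x axis, kb from the first of the 17 highest summits), in replicate 1 (upper) and replicate 2 (lower). The 17 highest form 2 blocks of 9 and 8, with a median spacing of 4351 and 4362 bp and no peak in the middle.

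Set beside the H3K27ac lists, the share of neighbouring summits within 2000 bp was 39.8% and 33.2% in the H3K4me1 lists and 43.8, 42.4 and 40.3% in the H3K27ac lists, with no overlap. The difference of means was -5.62 percentage points, with an exact two-sided permutation p of 0.1 over the 5 lists, which is the smallest this design can give. With the 30000 peaks of highest q-value score in each list the shares were 24.7% and 21.8% for H3K4me1, and 35.5, 39.1 and 39.7% for H3K27ac, a difference of -14.9 points with the same p. The variance-to-mean ratio per 100 kb bin was 11.4 and 9.63 for H3K4me1 and 8.00, 7.37 and 6.91 for H3K27ac, a difference of 3.08 with an exact p of 0.1. With lists of equal size it was 6.70 and 6.29 for H3K4me1 and 5.94, 6.61 and 6.79 for H3K27ac, and the difference was 0.05 with an exact p of 0.9. The cut to 30000 peaks fell harder on H3K4me1, with 70726 and 59430 peaks, than on H3K27ac, with 39837, 34035 and 30599. Keeping only H3K4me1 peaks of a minus log10 q of at least 10 lowered their mean close share from 36.5% to 27.03%. The part of the unequal cut in both differences was not tested. The version of the caller changed together with the mark, and cannot be told apart from it.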

How the data were processed

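Per the labels' protocols and the file headers, the authors called peaks with MACS2 library by library, unpooled and against the matching input, at a q-value limit of 0.001 with 1 tag kept per position. The headers name version 2.0.10.20130306 for the H3K4me1 lists and 2.1.1.20160309 for the H3K27ac lists; the submitters' processing notes name mm9. No aligner is given in the sources used here. The deposited signal is the pileup, the deposited ratio is the fold enrichment, and the deposited −log10 q-value was used only to rank and filter peaks. All are the authors' values per peak, used within a list. Undoing the header's scale gave whole tags within 0.05 for 100% of peaks, and the background was obtained by inverting the ratio: its minimum, 1.58 and 1.65 tags, lay beside the genome-wide expectation of 1.57 and 1.65. Fragment lengths were 203 and 255 bp.

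Peaks were joined where they overlapped or touched; bins of 100 kb ran between the first and last peak of chromosomes 1 to 19 and X. With 2 lists, H3K4me1 results are descriptions; exact permutation tests over the 5 lists were run for the comparison of marks. Named loci are the 10 best mean ranks by fold, by longest peak and by bin count, and the 5 longest chains and empty stretches. The loci, limits and alternatives were chosen with earlier results of these data known. Promoters, genes and sequence of mm9 were not used here. The code was tested on simulated peaks and recovered 10 of 10 quantities. Python 3.11.15, NumPy 2.4.6, pandas 2.3.3, SciPy 1.17.1 and Matplotlib 3.10.9 were used.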

Additional observations from a re-analysis of the deposited data

How the results depend on the processing

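Of 53 recomputed values, 19 moved by more than the spread between lists or more than 1.5 times a count, and none changed direction. Only the differences between marks could change direction by these rules, and they could not count as moved. Leaving out 1 H3K4me1 list could not move the variance-to-mean ratio or the close summit share, since each list lies within the spread of their mean. Part of this tally was thus fixed in advance. The differences between marks were judged by sign alone, and p was not used. With 30000 peaks in each list that of the close share was -14.9 instead of -5.62 points. That of the variance-to-mean ratio kept its sign but was 0.05 (exact permutation p = 0.9) instead of 3.08 (exact permutation p = 0.1). With only peaks of a minus log10 q of at least 10, shared regions were 21732 instead of 42329, the mean recurring share 61.1% instead of 69.4%, crowded bins 636 instead of 1780, the variance-to-mean ratio 7.54 instead of 10.5 and the close summit share 27.03% instead of 36.5%. With 50000 peaks in each list, these last 3 were 1180, 8.85 and 31.5%. Joining peaks across 1000 bp gave 716, 5.43 and 5.72%, and 60 instead of 31 of the 100 longest were shared. Ranking by pileup gave 55 shared of 100 instead of 8 by fold, but 36 and 31 of those 100 lay at the evenly spaced chromosome 6 locus and 9 and 18 at the chromosome 11 locus, where the input was high. Per 100 of the first 1000, 12.9 were shared by fold, 43.8 by pileup and 51.6 by length. The ratio was 6.69 in bins of 50 kb and 16.4 in bins of 200 kb, and 17.5% of summits were within 1000 bp and 54.1% within 5000 bp. The cause was not tested where the construction of the setting does not show it.

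The remaining H3K4me1 list alone gave 1929 to 2455 crowded bins, a ratio of 9.63 to 11.4 and a close share of 33.2% to 39.8%. Leaving out each of the 5 lists gave differences between marks of -8.94 to -2.30 points for the close share (-2.30 without H3K4me1 replicate 2, -8.94 without replicate 1) and 2.21 to 3.94 for the ratio. Shared regions, recurrence and the first 100 need both lists. No paired analysis was possible because the H3K4me1 results come from no test, and replicate numbers of the marks run in a single series in the titles.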
